A study of Mus musculus with 6 samples.

Results

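The genes described here are 10 regulators and effectors of the ATF4-CHOP branch of the integrated stress response. They are the transcription factors Atf3, Atf4, Atf5 and Ddit3 (the gene of CHOP), the feedback regulators Ppp1r15a (GADD34) and Trib3, and the effectors Chac1, Ddit4 (REDD1), Sesn2 and Stc2. They were taken by name from the 55414 genes of the deposited count table, and all 10 were present. Their RNA was measured in AY-mICC, a mouse line used to study intrahepatic cholangiocarcinoma, a tumour that arises in bile ducts inside the liver. By their labels, 3 libraries came from cells with Copa knocked down (shCopa) and 3 from control cells (shCon). Both groups were the same line in the same serum-supplemented medium, and no drug treatment was recorded. The product of Copa is a subunit of COPI, a coat of vesicles that move from the Golgi back to the endoplasmic reticulum (ER). The comparison asks how a reduced COPI subunit goes with the transcripts of stress signalling. The number of hairpins or clones is not given in the sources used here. Nor do the labels say that replicates came from separate cultures, so the p-values measure the spread between these libraries, which may be technical.

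In the integrated stress response, kinases that sense ER stress, amino acid shortage, double-stranded RNA or heme shortage phosphorylate the translation factor eIF2α. Most translation then slows, while mRNAs with suitable upstream open reading frames in their leaders, such as that of Atf4, are translated more. The ATF4 protein induces Ddit3, Atf3, Trib3, Chac1, Sesn2 and other genes. GADD34, the product of Ppp1r15a, brings protein phosphatase 1 to eIF2α and closes the loop. Since the step from eIF2α to ATF4 is largely translational, an Atf4 transcript count is not a measure of ATF4 protein.

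Copa averaged 185 ± 2.91 CPM (counts scaled to library size) in shCopa and 488 ± 59.1 CPM in shCon (SD, n = 3 each). The shCopa libraries had 186, 182 and 187 CPM of Copa, against 420, 517 and 527 CPM in shCon libraries 1 to 3, which fits the labels, at 37.9% of the shCon level. Library totals ran from 19634938 to 24546204 counts. Across tested genes, Pearson's r of log2 CPM was 0.9888 to 0.9907 among the shCopa libraries and 0.9898 between shCon 2 and shCon 3. shCon 1 stood apart, at 0.9734 with shCon 2 and 0.9719 with shCon 3. Its difference from the other two shCon libraries ran with transcript length, with a median of 0.47 on the log2 scale in the shortest genes (66 to 1863 bases) and -0.44 in the longest (5152 to 123179 bases), when genes were cut by length into 5 equal groups. Results that rest on this library are therefore also given without it. Of the epithelial markers, Krt8, Krt18, Krt19 and Sox9 were well expressed, while Epcam stayed under 1 CPM in all 6 libraries. The 8 epithelial markers summed to 4020 to 4237 CPM in shCopa and 5094 to 6089 CPM in shCon. The 8 leukocyte markers summed to 111 to 114 CPM in shCopa and 157 to 195 CPM in shCon, mostly Csf1r, and Ptprc (CD45) averaged 1.09 ± 0.168 CPM in shCopa and 0.028 ± 0.0243 CPM in shCon. The 8 fibroblast markers summed to 170 to 184 CPM in shCopa and 185 to 224 CPM in shCon, mostly Dcn, with 4 of the 8 under 1 CPM in all libraries. The 5 endothelial markers summed to 2.52 to 4.55 CPM in shCopa and 0.411 to 0.601 CPM in shCon, and the 5 hepatocyte markers to 23.0 to 24.2 CPM in shCopa and 8.37 to 13.2 CPM in shCon, mostly Alb. The part of these shifts in the results below was not tested, and in bulk RNA fewer cells of a type and less RNA per cell cannot be told apart.

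Promoters are shown for the 4 regulators whose window holds a match to a motif of bZIP factors, the family of ATF4 and CHOP. All 4 were higher in shCopa. Stc2, which was lower and holds none, is also shown. Trib3 (higher), Atf4 and Ddit4 (which did not pass the test) and Atf5 and Sesn2 (lower) hold none either and are not shown. Each sequence is the 250 bases before the transcript start in RefSeq (build GRCm38.p6), written 5′ to 3′ on the strand of the gene. Capitals mark matches to the C/EBP-ATF response element (TGATGNAA), the cyclic AMP response element (TGACGTCA) or the AP-1 site (TGANTCA), each searched on both strands.
Atf3 (chr1:191183334-191183583, minus strand): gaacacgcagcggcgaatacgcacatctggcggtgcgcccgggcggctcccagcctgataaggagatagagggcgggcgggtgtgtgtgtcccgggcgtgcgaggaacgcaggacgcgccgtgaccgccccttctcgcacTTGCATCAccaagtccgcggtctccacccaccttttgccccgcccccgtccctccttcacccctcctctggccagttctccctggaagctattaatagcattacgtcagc
Chac1 (chr2:119350992-119351241, plus strand): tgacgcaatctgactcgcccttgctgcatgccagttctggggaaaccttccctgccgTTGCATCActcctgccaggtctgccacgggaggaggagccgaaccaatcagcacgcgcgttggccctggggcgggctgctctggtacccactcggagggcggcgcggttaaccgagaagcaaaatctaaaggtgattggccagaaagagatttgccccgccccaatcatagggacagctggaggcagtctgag
Ddit3 (chr10:127290543-127290792, plus strand): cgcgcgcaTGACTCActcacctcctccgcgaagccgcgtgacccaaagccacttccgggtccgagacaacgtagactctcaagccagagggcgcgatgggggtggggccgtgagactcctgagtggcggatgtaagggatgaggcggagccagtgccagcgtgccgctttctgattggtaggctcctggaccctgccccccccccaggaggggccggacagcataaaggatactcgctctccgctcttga
Ppp1r15a (chr7:45526269-45526518, minus strand): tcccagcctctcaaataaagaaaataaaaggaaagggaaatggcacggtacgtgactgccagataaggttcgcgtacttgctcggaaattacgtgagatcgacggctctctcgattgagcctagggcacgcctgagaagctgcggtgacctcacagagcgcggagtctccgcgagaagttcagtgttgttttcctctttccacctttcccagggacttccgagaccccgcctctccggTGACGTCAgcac
Stc2 (chr11:31370062-31370311, minus strand): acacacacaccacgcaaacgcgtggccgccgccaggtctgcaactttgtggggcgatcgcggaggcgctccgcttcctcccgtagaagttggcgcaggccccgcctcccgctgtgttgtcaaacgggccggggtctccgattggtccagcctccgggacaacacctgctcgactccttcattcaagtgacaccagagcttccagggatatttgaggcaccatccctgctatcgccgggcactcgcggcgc

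The C/EBP-ATF response element was matched in the promoters of Atf3, at positions -110 to -103 from the start, and Chac1, at -193 to -186, in both as TTGCATCA on the strand of the gene. These were 2 of 11 promoters of the regulators (Atf5 has 2 in the table), against 3.45% of the 32851 promoters in the table. Ppp1r15a held the cyclic AMP response element at -12 to -5, 1 of 11 against 1.55% of all promoters. Ddit3 held an AP-1 site as TGACTCA at -242 to -236, 1 of 11 against 6.75%. The core of the hypoxia response element, ACGTG, was in 2 of 11 promoters (Ddit4 and Ppp1r15a) against 16.6%. The core of the ER stress element, CCACG, was in 6 of 11 against 28.3%: Atf4, 1 of the 2 Atf5 promoters, Chac1, Ddit4, Sesn2 and Stc2. None of these matches overlapped another. The windows of Trib3, which also rose, and of the other Atf5 promoter held no match to these letters.

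Of the 10 regulators, 5 rose, 3 fell and 2 did not pass the test. Atf3, Ddit3, Ppp1r15a, Trib3 and Chac1 were higher in shCopa, by 1.65-fold to 4.11-fold. Atf5, Stc2 and Sesn2 were lower in shCopa, at 24.1% to 47.9% of the shCon level. Atf4 and Ddit4 did not pass. Calls are those of edgeR's quasi-likelihood test with Benjamini-Hochberg adjustment over 14807 genes, at a threshold of 0.05. Of all tested genes, 36.5% were called, 18.2% as higher and 18.4% as lower, so calls were common throughout this comparison. For 8 of the 10 regulators, the same 8 that were called, no shCopa library fell within the range of shCon or shCon within that of shCopa, as for 54.0% of all tested genes. The median log2 fold change (shCopa minus shCon) was 0.60 over the 10 regulators and -0.01 over all tested genes.

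**Figure D1:**
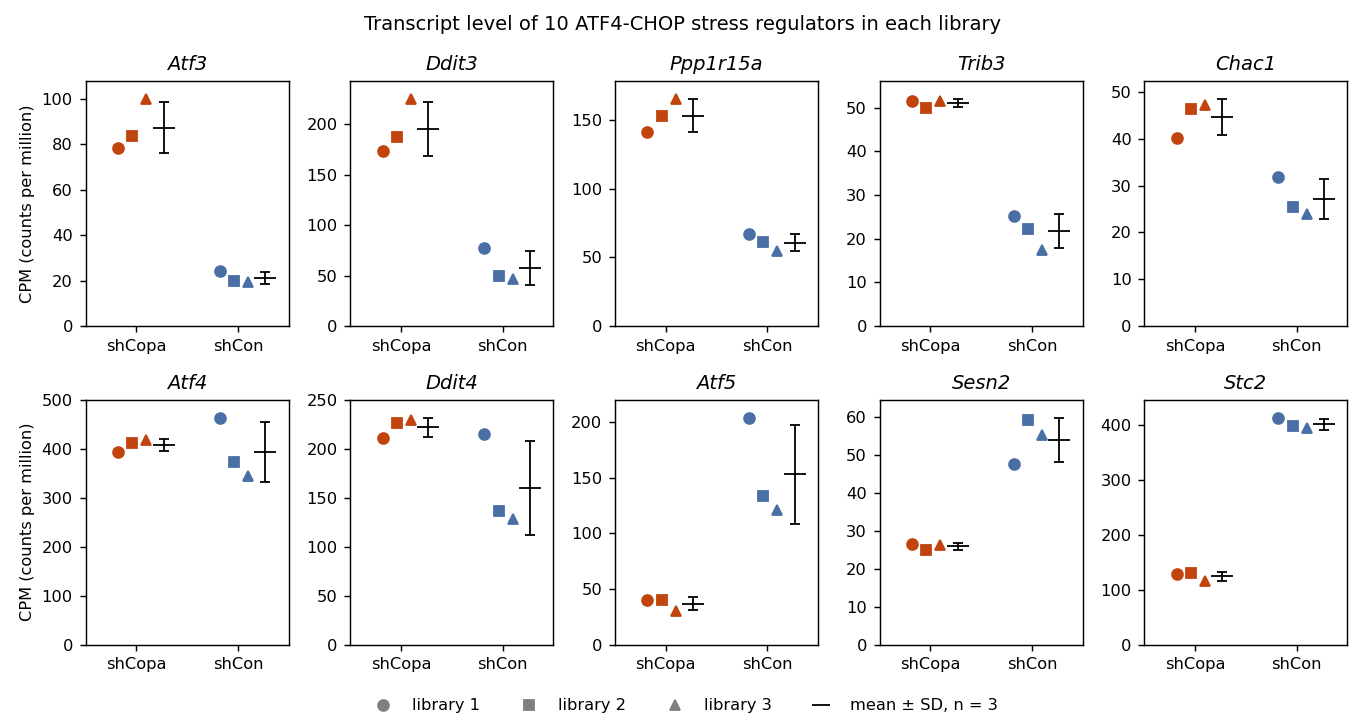
Transcript level (CPM, y axis) of each of the 10 regulators in every library, shCopa left of shCon. Symbols mark the library number, black bars the mean ± SD (n = 3). The groups overlap only for Atf4 and Ddit4, and shCon 1 is the highest shCon library for 9 of the 10 genes.

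Atf3, a bZIP factor induced early by many stresses, changed most in the upward direction. It had 78.5, 83.6 and 99.9 CPM in the shCopa libraries, against 24.4, 19.8 and 19.5 CPM in shCon libraries 1 to 3. The lowest shCopa library stood well above the highest shCon library. The means were 87.3 ± 11.2 CPM in shCopa and 21.2 ± 2.73 CPM in shCon, a log2 fold change of 2.04 ± 0.14 (SE), or 4.11-fold (edgeR adjusted p = 9.26e-05). Of the 14807 tested genes, 442 had a larger rise.

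Ddit3 encodes CHOP, a C/EBP-family factor known for its part in cell death after prolonged ER stress. The shCopa libraries had 174, 187 and 225 CPM, against 77.3, 50.0 and 46.4 CPM in shCon libraries 1 to 3. All shCopa libraries were above all shCon libraries, and shCon 1 was the highest of its group. Its log2 fold change was 1.75 ± 0.21, or 3.37-fold (edgeR adjusted p = 0.000829), and 2.01 without shCon 1 (adjusted p = 1.42e-05). In the mouse annotation 68 of the 1713 exon bases of Ddit3 lie opposite Mars, and the strand setting of the counting is not given in the sources used here. A second identifier of the same name, a short frame in the Ddit3 leader, held 76 counts over all 6 libraries and was not used.

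Atf4, the central factor of the pathway, differed little. It had 393, 411 and 418 CPM in shCopa and 463, 373 and 344 CPM in shCon libraries 1 to 3. The shCopa values lay inside the range of shCon, whose first library was the highest of the 6. The means were 407 ± 13.0 CPM in shCopa and 393 ± 61.7 CPM in shCon, with a log2 fold change of 0.05 ± 0.12 (edgeR adjusted p = 0.773). Without shCon 1 the change passed the threshold at 0.18 ± 0.06 (adjusted p = 0.0103), and without shCon 3 it was -0.05.

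Atf5, a close relative of Atf4 that is linked to the mitochondrial stress response, had the largest fall of the 10 regulators, although Stc2 fell more under offsets for transcript length and GC content (-1.64 for Atf5 and -1.72 for Stc2). The shCopa libraries had 40.3, 39.9 and 30.2 CPM, against 204, 134 and 121 CPM in shCon libraries 1 to 3. The groups were far apart, and shCon 1 was again the highest. Atf5 had a log2 fold change of -2.05 ± 0.22, which put it at 24.1% of the shCon level (edgeR adjusted p = 0.000528). It was -1.79 without shCon 1, and 160 of the tested genes had a larger fall with all libraries. Of 1993 exon bases of Atf5, 82 lie opposite Nup62.

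The feedback regulators both rose. Ppp1r15a encodes GADD34, the stress-induced subunit that directs protein phosphatase 1 to eIF2α. It had 141, 153 and 165 CPM in shCopa, against 66.6, 61.0 and 54.4 CPM in shCon libraries 1 to 3, with every shCopa library higher. This was a log2 fold change of 1.33 ± 0.11, or 2.52-fold (edgeR adjusted p = 0.00018). Trib3 encodes a pseudokinase that binds ATF4, CHOP and AKT and limits their activity. It had 51.6, 49.9 and 51.5 CPM in shCopa, against 25.3, 22.2 and 17.5 CPM in shCon. The shCopa libraries lay within 1 narrow band above the shCon range, and the log2 fold change was 1.24 ± 0.14, or 2.36-fold (edgeR adjusted p = 0.000641).

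Among the effectors, Chac1, which encodes an enzyme that breaks down glutathione, rose least of the 5 that rose. It had 40.2, 46.3 and 47.3 CPM in shCopa, against 31.9, 25.5 and 24.0 CPM in shCon libraries 1 to 3. The groups did not overlap, and shCon 1 came nearest to shCopa. The log2 fold change was 0.72 ± 0.13, or 1.65-fold (edgeR adjusted p = 0.00547), and 0.85 without shCon 1.

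Ddit4 and Sesn2 both encode inhibitors of mTORC1, the kinase complex that promotes growth, and their transcripts differed in what they did. Ddit4 (REDD1) acts through the TSC complex. It had 211, 226 and 229 CPM in shCopa, against 215, 136 and 128 CPM in shCon libraries 1 to 3. shCon 1 lay among the shCopa libraries, while the other two shCon libraries lay below all of them. The log2 fold change of 0.47 ± 0.19 did not pass the test (edgeR adjusted p = 0.0947), but without shCon 1 it was 0.74 (adjusted p = 5.41e-09).

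Sesn2 encodes a leucine sensor that restrains mTORC1 through the GATOR complexes. It had 26.5, 24.9 and 26.4 CPM in shCopa, against 47.8, 59.3 and 55.3 CPM in shCon libraries 1 to 3. Every shCopa library was lower than every shCon library, and this was the 1 regulator for which shCon 1 was the lowest of its group. Sesn2 had a log2 fold change of -1.06 ± 0.11, or 47.9% of the shCon level (edgeR adjusted p = 0.000388).

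Stc2 encodes a secreted glycoprotein, stanniocalcin, that ER stress and hypoxia are known to induce. It had 128, 130 and 115 CPM in shCopa, against 413, 397 and 394 CPM in shCon libraries 1 to 3. Its spread within each group was small, and the groups were far apart. The log2 fold change was -1.69 ± 0.09, or 31.0% of the shCon level (edgeR adjusted p = 4.45e-05), and -1.67 without shCon 1.

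Without shCon 1, 7 of the 10 regulators rose and 3 fell, where 55.3% of 15273 tested genes were called. Atf4 and Ddit4 were the additions to those that rose. Their median log2 fold change was then 0.80, against 0.01 over all tested genes. Offsets for the length and GC content of transcripts, fitted library by library, also gave 7 that rose and 3 that fell, with 48.0% of 14781 genes called. Under these offsets the log2 fold change was 0.18 for Atf4 and 0.72 for Ddit4. In shCon 1, Ddit4 was 0.70, Atf5 0.68 and Ddit3 0.68 higher on the log2 scale than the mean of the other two shCon libraries, while Stc2 was 0.06 higher and Sesn2 lower by a difference of -0.26.

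**Figure D2:**
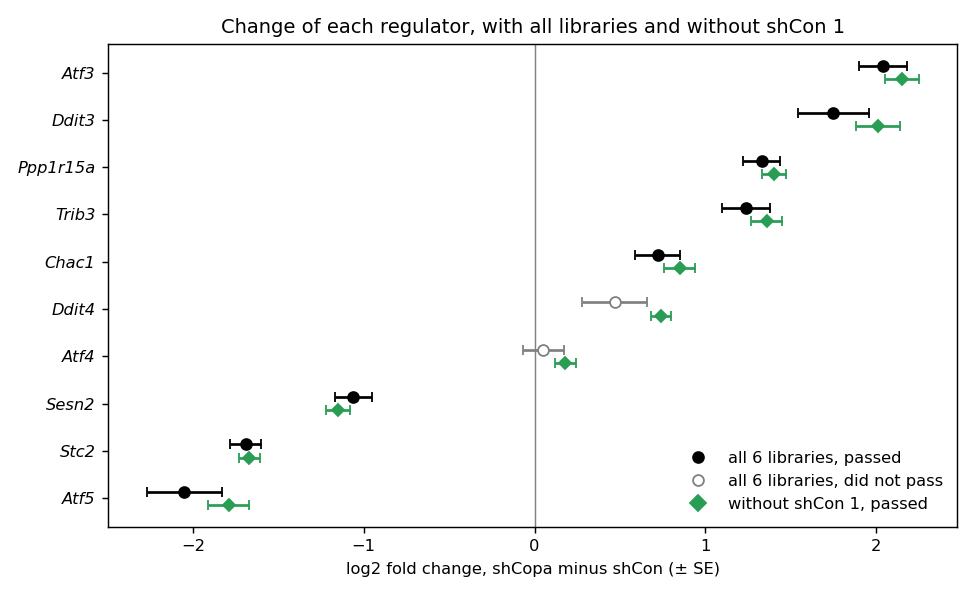
Log2 fold change, shCopa minus shCon (x axis, ± SE), of each regulator (y axis) with all 6 libraries (circles, open where the test was not passed) and without shCon 1 (diamonds). Atf4 (0.05 and 0.18) and Ddit4 (0.47 and 0.74) do not pass the test with all 6 libraries and no offsets and pass it without shCon 1, and no regulator changes sign between the estimates.

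Levels of different genes were compared as CPM per kb of transcript. For Ddit3 this length was 890 bases, that of its principal transcript, while all its annotated exons cover 1713 bases. Its level, rank and ratio to other genes can therefore depend on the transcript taken. In shCopa, Atf4 was first at 236 ± 7.51 CPM per kb, and Ddit3, at 219 ± 30.1 CPM per kb, overlapped it. Ddit4 followed at 127 ± 5.63, then Ppp1r15a at 54.4 ± 4.23 and Atf3 at 44.0 ± 5.65 CPM per kb, with libraries of Ppp1r15a and Atf3 overlapping. Below them came Stc2 at 31.6 ± 2.06, Chac1 at 27.3 ± 2.35 and Trib3 at 25.2 ± 0.465 CPM per kb, of which Chac1 and Trib3 overlapped. Atf5 (20.3 ± 3.15) and Sesn2 (7.46 ± 0.267 CPM per kb) were lowest.

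In shCon, Atf4 was again first, at 228 ± 35.8 CPM per kb, and its libraries did not overlap those of the next gene. Stc2 was second at 102 ± 2.64 CPM per kb. Ddit4 (91.1 ± 27.3), Atf5 (84.1 ± 24.6) and Ddit3 (65.1 ± 19.0 CPM per kb) followed, and each overlapped its neighbour in this order, as Ddit4 did Stc2. Ppp1r15a (21.6 ± 2.17) came next and did not overlap Ddit3. Chac1 (16.6 ± 2.58 CPM per kb) overlapped both Ppp1r15a above it and Sesn2 (15.6 ± 1.68) below it, and Sesn2 did not overlap Atf3. Atf3 (10.7 ± 1.38) and Trib3 (10.7 ± 1.94 CPM per kb) were last and overlapped. Ddit3 was thus in rank 2 in shCopa and rank 5 in shCon, and Stc2 in rank 6 in shCopa and rank 2 in shCon.

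**Figure D3:**
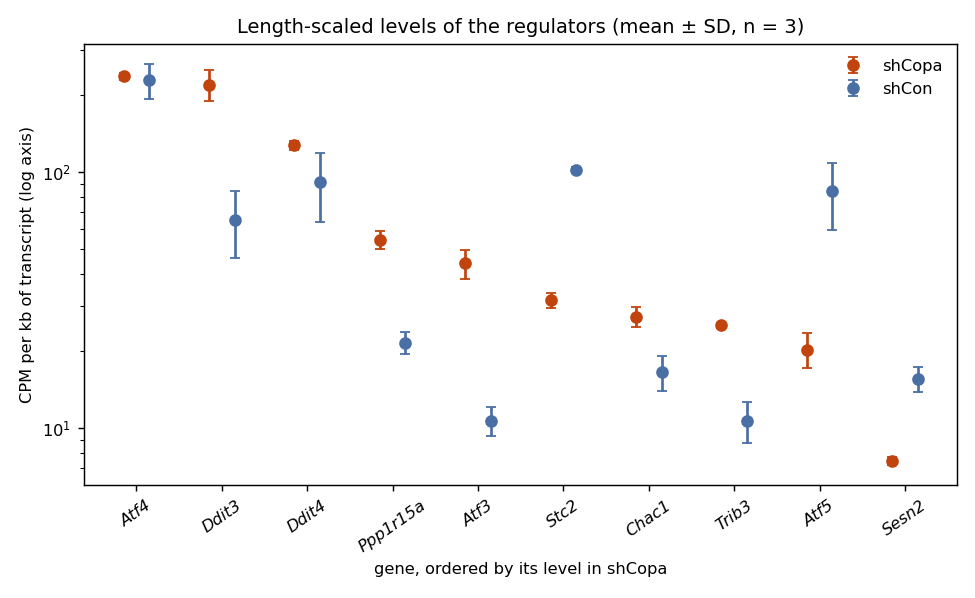
Level per length (CPM per kb of transcript, log axis; mean ± SD, n = 3) of each regulator, ordered by its level in shCopa, with shCopa left of shCon. Atf4 is first in both groups (236 and 228 CPM per kb), while Ddit3 is 219 in shCopa and 65.1 in shCon and Stc2 31.6 in shCopa and 102 in shCon.

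The ratio of Ddit3 to Atf4 per length was 0.856, 0.880 and 1.04 in the shCopa libraries, against 0.324, 0.260 and 0.261 in shCon libraries 1 to 3. With the 890-base length, Ddit3 was thus somewhat below Atf4 in shCopa 1 and 2 and slightly above it in shCopa 3. It was far below Atf4 in each shCon library. A longer transcript of Ddit3 would lower its ratio in all 6 libraries alike. The ratio of Atf3 to Atf4 averaged 0.186 ± 0.019 in shCopa and 0.0471 ± 0.00191 in shCon. That of Ddit4 to Atf4 averaged 0.536 ± 0.00725 in shCopa and 0.394 ± 0.0543 in shCon. For all 9 other regulators the groups did not overlap in their ratio to Atf4, including Ddit4, whose CPM values did overlap. In CPM, the groups did not overlap for 54.0% of all tested genes. The share of all genes that do not overlap in their ratio to Atf4 was not computed, so these 9 have no background.

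Several regulators have paralogs with a related role, and the make-up of these small families differed between the groups. Of the length-scaled level of the sestrins, Sesn2 held 11.1% ± 0.696 in shCopa and 20.5% ± 2.57 in shCon, and the most abundant sestrin in both was Sesn3, at 79.2% ± 0.369 in shCopa and 65.9% ± 5.91 in shCon. Sesn1 also fell, with a log2 fold change of -0.62 ± 0.11 (edgeR adjusted p = 0.00336), whereas Sesn3 was 0.05 ± 0.20 with all libraries and -0.17 without shCon 1. Of the tribbles, Trib3 held 69.0% ± 0.879 in shCopa and 45.4% ± 5.15 in shCon. Trib1 held 29.0% ± 1.15 in shCopa and 51.1% ± 4.92 in shCon. The most abundant tribbles transcript by mean was thus Trib3 in shCopa and Trib1 in shCon. This order did not hold in shCon 1, where Trib3 held 50.1% and Trib1 46.9%.

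Ppp1r15b encodes CReP, the subunit that directs the phosphatase to eIF2α without stress. Of the sum of both, Ppp1r15a held 71.6% ± 1.33 in shCopa and 48.9% ± 5.07 in shCon, while Ppp1r15b itself did not pass the test (log2 fold change -0.07 ± 0.11, edgeR adjusted p = 0.649). Chac1 held 55.8%, 63.1% and 59.1% of the Chac1 and Chac2 level in shCopa, against 48.6%, 48.6% and 48.7% in shCon. The shCon libraries, shCon 1 included, were almost equal in this share. Ddit4 held 92.3% ± 0.628 of the Ddit4 and Ddit4l level in shCopa and 85.0% ± 2.21 in shCon. Atf5 held 7.91% ± 1.31 of the Atf4 and Atf5 level in shCopa and 26.6% ± 2.49 in shCon. Stc2 was over 99% of the stanniocalcins in every library. Of the 8 paralogs examined, Sesn1 and Ddit4l fell and 6 did not pass, while 5 fell without shCon 1 and 1 without shCopa 1. With all libraries, calls made up 25.0% of these paralogs, against 36.5% of all tested genes.

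**Figure D4:**
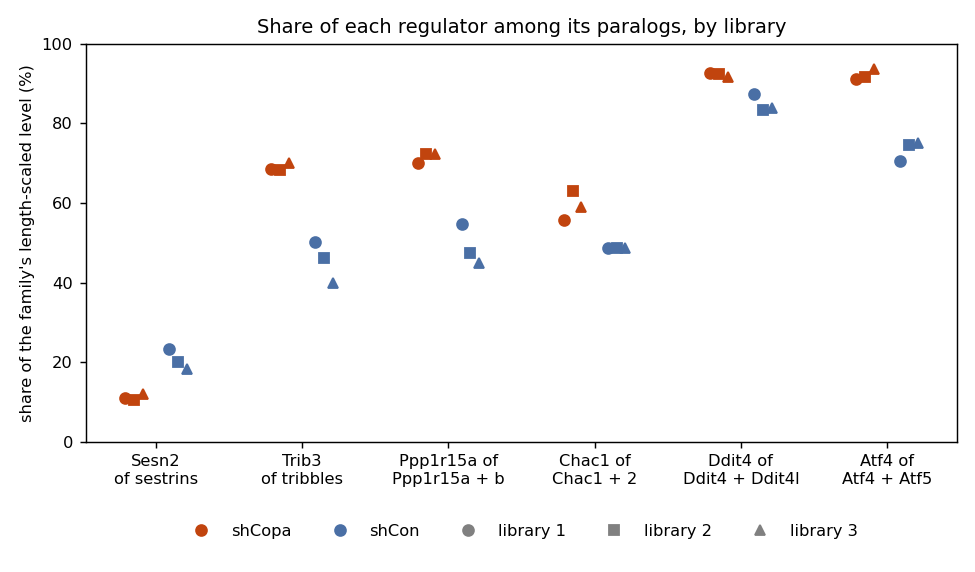
Share (y axis, percent) of a regulator in the length-scaled level of its family, by library, with shCopa left of shCon and symbols for the library number. The groups do not overlap in any of these 6 families. Sesn2 has the lower share in shCopa (11.1% and 20.5% on average in shCopa and shCon) and the other 5 have the higher share. In CPM, the groups do not overlap for 54.0% of all tested genes, and no such share was computed for families.

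The leaders of the mRNAs, which are known to set how such messages are translated when eIF2α is phosphorylated, were described from the GENCODE M21 annotation. Of the 10 regulators, 7 had at least 1 ATG upstream of the coding start, as did 55% of 20889 annotated transcripts, whose median leader was 174 bases. Ppp1r15a had the longest leader, 764 bases with 7 upstream ATGs. Atf4 had 594 bases with 3, and the last of its upstream frames, of 59 codons, ran past the coding start in another frame. Atf5 had 373 bases with 2, the second of which opened a frame of 58 codons that also ran past the coding start. Ddit3 had 186 bases with 2 ATGs in the same frame, which lay 34 and 31 codons before a shared stop. Atf3 (252 bases), Sesn2 (348 bases) and Stc2 (212 bases) had 1 upstream ATG each, and the leaders of Chac1, Ddit4 and Trib3 had none. Regulators with upstream frames were among those that rose, those that fell and those that did not pass. RNA counts do not show translation.

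**Figure D5:**
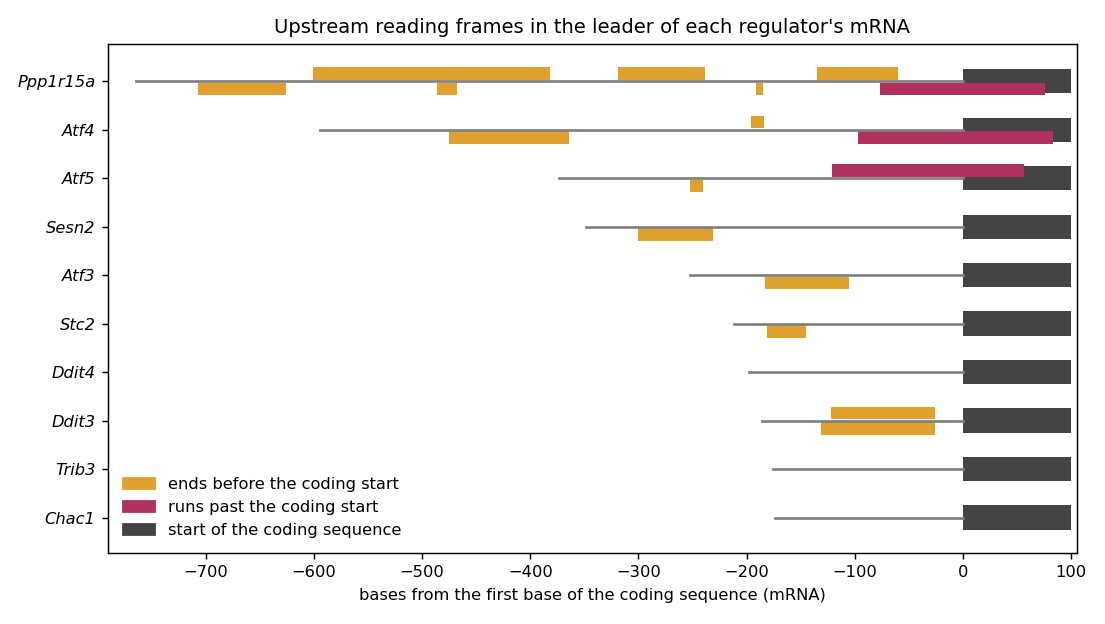
Leader of each regulator's annotated mRNA (grey line), with upstream reading frames that end before the coding start (orange) or run past it (red), drawn by distance in bases from the first coding base (x axis); boxes above and below the line only part neighbouring frames. Atf4, Atf5 and Ppp1r15a have a frame that runs past the coding start, and Chac1, Ddit4 and Trib3 have none.

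Upstream of ATF4, the eIF2α kinases did not move together. Of 15 genes for these kinases, phosphatase subunits and their modulators, 3 rose, 3 fell and 9 did not pass (median log2 fold change -0.07). Calls made up 40.0% of these genes, near the 36.5% over all tested genes. Eif2ak3, the gene of PERK, the kinase of the ER, averaged 74.9 ± 5.43 CPM in shCopa and 123 ± 10.8 CPM in shCon and fell, with a log2 fold change of -0.72 ± 0.10 (edgeR adjusted p = 0.00178). Eif2ak2 (PKR, the kinase of double-stranded RNA) rose by 0.85 ± 0.22 (edgeR adjusted p = 0.0209), and Eif2ak4 (GCN2, the kinase of amino acid shortage) by 0.39 ± 0.11 (edgeR adjusted p = 0.0303). Both of these lost their call when any 1 shCopa library was left out. Eif2ak1, the kinase of heme shortage, was at -0.17 ± 0.08 (edgeR adjusted p = 0.146). Eif2s1, which encodes eIF2α itself, averaged 112 ± 4.58 CPM in shCopa and 70.3 ± 1.87 CPM in shCon and rose by 0.68 ± 0.08 (edgeR adjusted p = 0.000838). Without shCon 1, 4 of the 15 genes rose and 8 fell, and over all single libraries left out 1 to 4 rose and 2 to 8 fell. Of 9 genes of the eIF2 and eIF2B complexes, 1 rose, 1 fell and 7 did not pass (22.2% called), and 4 rose without shCon 1. The call of the 1 that fell was lost without shCon 2 and without any 1 of the shCopa libraries.

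ATF4 and CHOP bind DNA as pairs with other bZIP factors. Of 27 such genes listed, 24 were tested, of which 3 rose, 7 fell and 14 did not pass (median -0.22). Calls made up 41.7% of those tested, against 36.5% of all tested genes. These counts ran from 1 to 7 that rose and 3 to 11 that fell over single libraries left out, the highest without shCon 1. Cebpg, a partner of ATF4 on amino acid response genes, averaged 61.6 ± 3.03 CPM in shCopa and 85.1 ± 5.80 CPM in shCon and fell by 0.47 on the log2 scale (edgeR adjusted p = 0.00674). Cebpb had 6.82, 8.08 and 5.87 CPM in shCopa, against 81.1, 9.53 and 11.5 CPM in shCon libraries 1 to 3, so the size of its difference rested on shCon 1. Its log2 fold change was -2.29 (edgeR adjusted p = 0.0622), and -0.60 without shCon 1 (adjusted p = 0.00334).

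Downstream, other genes known as direct targets of ATF4 or CHOP were also divided. Calls made up 64.3% of those tested, against 36.5% of all tested genes. Of the 28 that could be tested, 10 rose and 8 fell, while 10 did not pass, with a median of 0.04; over single libraries left out 7 to 12 rose and 4 to 11 fell, the highest without shCon 1 and the fewest falls without shCopa 3. Gdf15, a secreted stress cytokine, averaged 990 ± 90.5 CPM in shCopa and 354 ± 88.1 CPM in shCon and rose 2.80-fold (edgeR adjusted p = 0.000828). Sqstm1, an autophagy receptor, rose 2.42-fold (edgeR adjusted p = 0.000113). Mknk2, a kinase of the cap-binding factor eIF4E, was at 20.7% of the shCon level (edgeR adjusted p = 3.44e-05). Nupr1, a stress-induced chromatin protein, was at 55.1% (edgeR adjusted p = 0.0115), a call that was lost without shCopa 1. Some of these direct targets are counted again in other lists here. Slc7a11 and Cth, which rose, are also amino acid targets. Gdf15, Cdkn1a and Tnfrsf10b, which rose, are also p53 targets. Gdf15 is also listed as a mitochondrial stress gene, and Vegfa, which fell, as a hypoxia target.

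Of 23 tested ATF4 targets in amino acid synthesis and transport, 8 rose, 3 fell and 12 did not pass (median 0.18). Calls made up 47.8% of these targets, against 36.5% of all tested genes. Without shCon 1, 12 rose and 6 fell, and the lowest counts with any library left out were 4 and 0. Slc7a11, the cystine transporter that feeds glutathione synthesis, averaged 34.7 ± 1.29 CPM in shCopa and 8.47 ± 2.96 CPM in shCon and rose 4.09-fold (edgeR adjusted p = 0.000884). Cth, which makes cysteine from cystathionine, rose 3.90-fold (edgeR adjusted p = 0.000623). Its level was low, at 3.91 ± 0.646 CPM in shCopa and 0.998 ± 0.067 CPM in shCon. Cbs, listed among the direct targets of ATF4 or CHOP, fell to 30.3% of the shCon level (edgeR adjusted p = 0.000113). It averaged 6.79 ± 0.533 CPM in shCopa and 22.4 ± 1.75 CPM in shCon. Asns, asparagine synthetase and a standard ATF4 target, did not pass (113 ± 8.48 CPM in shCopa and 133 ± 15.7 CPM in shCon; edgeR adjusted p = 0.153). Of 13 aminoacyl-tRNA synthetase targets, 4 rose, 1 fell and 8 did not pass (38.5% called, near the share of all tested genes). Eprs rose 1.82-fold (edgeR adjusted p = 0.00174) and Aars was at 49.5% of the shCon level (edgeR adjusted p = 0.000185). Without shCon 1, 7 of these synthetase genes rose and 3 fell, and without shCopa 3, 1 rose.

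Other stress programmes share regulators with this one. ATF6 and XBP1 lead the other branches of the response to ER stress, and of their 22 tested targets 4 rose and 3 fell, with 15 that did not pass; Hspa5 (BiP) rose 1.91-fold (edgeR adjusted p = 0.000788) and Pdia4 was at 65.6% of the shCon level (edgeR adjusted p = 0.00121). Of 9 tested mitochondrial stress genes, 4 rose and 5 did not pass, and those that rose include the chaperonin gene Hspd1 (1.76-fold, edgeR adjusted p = 0.000379). Stc2 and Ddit4 are also known hypoxia genes: of 17 tested hypoxia targets, 1 rose, 9 fell and 7 did not pass (median -0.43), with Pdk1 at 32.8% (edgeR adjusted p = 5.22e-05) and Egln3 at 24.0% of the shCon level (edgeR adjusted p = 0.000204). Sesn2, Ddit4 and Atf3 are also known p53 targets: of 17 tested p53 targets, 9 rose, 2 fell and 6 did not pass (median 0.31), with Plk2 up 4.37-fold (edgeR adjusted p = 3.44e-05). Of 25 genes that regulate mTORC1 from upstream, 2 rose, 5 fell and 18 did not pass; Deptor, an inhibitor of mTOR, was at 22.7% of the shCon level (edgeR adjusted p = 0.000357). Of 10 factors of nonsense-mediated decay, the pathway known to degrade Atf4 and other stress transcripts, 2 rose (Smg8 by 0.79 on the log2 scale), 1 fell (Upf1, -0.43) and 7 did not pass. Without shCon 1, the counts that rose and fell were 7 and 8 among ATF6 and XBP1 targets, 3 and 9 among hypoxia targets, 10 and 3 among p53 targets, 5 and 9 among mTORC1 regulators and 3 and 1 among decay factors, and 7 mitochondrial stress genes rose. Without shCopa 3 they were lower: 5 hypoxia targets fell, 6 p53 targets and 2 ATF6 and XBP1 targets rose, and 1 mTORC1 regulator and 1 decay factor rose. With all libraries, calls made up 28.0% to 31.8% of ATF6 and XBP1 targets, mTORC1 regulators and decay factors. These shares were below the 36.5% of all tested genes. The shares were higher for mitochondrial stress genes (44.4%), hypoxia targets (58.8%) and p53 targets (64.7%). Of the 15273 genes tested without shCon 1, 55.3% were called.

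For each regulator the most similar genes were found by the root mean square distance between log2 CPM profiles over the 6 libraries, each centred on its shCon mean. Ddit3 was nearest to the chemokine gene Ccl7 (distance 0.065) and to Gadd45g (0.098). Atf3 was nearest to the mitochondrial ribosomal RNA mt-Rnr1 (0.091) and to Xaf1 (0.098). Ppp1r15a was nearest to Tmem268 (0.031) and Ppan (0.044), Trib3 to Pstpip1 (0.067) and Crct1 (0.072), and Chac1 to Lgals9 (0.034) and Pak1ip1 (0.041). Ddit4 was nearest to Hspe1 (0.032) and Gng5 (0.035), and Atf4 to Bub3 (0.019) and Lsm12 (0.02). Of the genes that fell, Sesn2 was nearest to Smarca4 (0.042) and AU040320 (0.043), Stc2 to Amigo2 (0.033) and Nlrp10 (0.076), and Atf5 to Agt (0.115) and Nkain4 (0.116). No regulator was among the 2 nearest genes of another. The distance follows mainly the size of the difference between the groups, so this does not show whether regulators vary together.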

How the data were processed

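For the 6 libraries the authors deposited estimated counts by Ensembl gene in 1 table, with values to 2 decimals, of which 10.6% to 11.9% per library were not whole. Per the labels' protocols, mRNA libraries were made from total RNA and sequenced paired-end. The build was GRCm39 and the tools were HISAT2 2.0.5, Trimmomatic, featureCounts, HTSeq and DESeq2, per the submitters' processing notes. Not given in the sources used here are the program behind the counts, its strand setting and the annotation.

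Symbols from GENCODE M21 were found for 52081 of 55414 identifiers; of 67 repeated symbols, the identifier with the higher mean was used. Counts were rounded, then fitted in edgeR 4.0.16 under R 4.3.3 (TMM scaling, filterByExpr, robust quasi-likelihood fits, Benjamini-Hochberg adjustment over 14807 genes). The biological coefficient of variation was 0.165. A floor of 3 counts equals 0.122 to 0.153 CPM; it covers counting error only. The steps were tested on simulated data. CPM per kb used the length of the annotated principal transcript (GRCm38), and promoters came from RefSeq's GRCm38.p6; no coordinates were converted. No protein sequences were used.

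The regulators and the gene lists were chosen with earlier results of these data known. Some genes are in more than 1 list, so the lists are not separate sets. The choice of other genes to name covered Copa, the 2 nearest genes of each regulator, a set of pathway genes, and those of smallest adjusted p in each list, at most 4. Not every gene so chosen is named in the text. Krt19, Sox9 and Epcam were named outside this choice. No column lacked a sample. Alternatives were RLE and upper-quartile scaling, no filter or 1 CPM in 3 libraries, DESeq2 1.42.0, limma-voom (limma 3.58.1), the replicate number as a block, length and GC offsets, stricter thresholds and each library left out.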

Additional observations from a re-analysis of the deposited data

How the results depend on the processing

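The calls of Atf3, Ddit3, Ppp1r15a, Trib3, Chac1, Atf5, Sesn2 and Stc2 held, in the same direction, under all 14 alternative fits, with log2 fold changes of 1.93 to 2.15 for Atf3, 1.60 to 2.01 for Ddit3, 1.25 to 1.43 for Ppp1r15a, 1.09 to 1.46 for Trib3, 0.62 to 0.93 for Chac1, -2.21 to -1.64 for Atf5, -1.15 to -0.88 for Sesn2 and -1.72 to -1.64 for Stc2. The largest adjusted p among these was 0.0322, for Chac1. Ddit4 ran from 0.33 to 0.74 and passed without shCon 1 and with the offsets. Over single libraries left out, Atf4 ran from -0.05 (without shCon 3) to 0.18 (without shCon 1), Sesn3 from -0.17 (without shCon 1) to 0.18, with -0.07 under the length and GC offsets, and Chac2 from -0.00 (without shCon 3) to 0.22; the cause was not tested. With at least a 2-fold change asked, 4 regulators rose and 3 fell, since Chac1 changed less.

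Over all genes, 2691 rose and 2720 fell. At an adjusted p of 0.01 these were 1590 and 1587, and with at least a 2-fold change 1118 and 935. With single libraries left out, 1778 (without shCopa 3) to 4317 (without shCon 1) rose, and 1755 (without shCopa 3) to 4122 (without shCon 1) fell. With the replicate number as a block, 1964 genes rose and 1939 fell, and 5 regulators rose and 3 fell as before. Deviations from the group means of same-numbered libraries correlated at -0.162, -0.0583 and -0.114, so no pairing by number was seen. With 3 libraries in each group and shCon 1 apart from the other shCon libraries, these values cannot exclude a pairing. Of the other genes followed through the alternatives, 22 of the values lost their call, 8 gained one, 3 changed sign and 526 kept direction and side of the threshold. Besides the genes whose lost calls are described above, Cdkn1a, Ddit4l and Vegfa lost theirs in some.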
